A study of Mus musculus with 31 samples.

Results

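The genes described are 10 bZIP transcription factors (proteins that bind DNA as dimers through a basic region followed by a leucine zipper) of the integrated stress response (ISR) and the unfolded protein response (UPR): Atf4, Atf5, Atf3, Ddit3 (the factor CHOP), Cebpb, Cebpg, Atf6, Atf6b, Xbp1 and Nfil3. They were picked by name with earlier results of these data known, although the rule itself uses no measured value, and all 10 were listed among the 20704 genes with ribosome footprint counts and the 24593 genes with total RNA counts. The cells were mouse skin squamous cell carcinoma (SCC) keratinocytes labelled HRasG12V:TgfbrIIfl/fl, whereas the study's list of cell lines gives both S51 and S51A as TgfbrII D/D. In every line the endogenous Eif2s1 gene, which encodes eIF2α, had been ablated with CRISPR and replaced by a Myc-tagged eIF2α cDNA driven by the PGK promoter of a lentivirus. In S51 cells (ISR-competent) the cDNA was wild type, and in S51A cells (ISR-null) serine 51, the residue that stress kinases phosphorylate, was alanine. Both genotypes were represented by 2 clones grown from single cells, and the clone behind each library was not named, so genotype and clone cannot be told apart here. Each genotype received vehicle (DMSO) or 100 nM of the proteasome inhibitor bortezomib for 4.5 h as labelled. The study's text gives a slightly shorter exposure. Ribosome-protected fragments (RPF, which report ribosomes on coding sequences) and rRNA-depleted total RNA were sequenced, with 4 libraries per group and kind except for 3 RPF libraries of vehicle-treated S51 cells.

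When eIF2α is phosphorylated on serine 51, less initiator tRNA is delivered to ribosomes and most mRNAs are translated less, whereas some mRNAs that carry short upstream reading frames are translated more. ATF4 is the best known product of this second class and switches on genes of amino acid supply and redox balance. ATF5 and CHOP are further products of it, CHOP being tied to cell death, and ATF3 is a stress-induced factor downstream of ATF4. C/EBPβ and C/EBPγ dimerise with ATF4 or CHOP. ATF6 and its relative ATF6B are kept in the endoplasmic reticulum (ER) membrane and are released by cleavage under ER stress, and XBP1 becomes active after the kinase IRE1 removes a short intron from its mRNA. NFIL3 (E4BP4) is a repressor of the PAR bZIP and circadian circuits. Proteotoxic stress from a blocked proteasome engages these pathways, and S51 and S51A cells were compared to ask how the responses differ when serine 51 cannot be phosphorylated.

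The reading frames upstream of the coding sequence, the feature that defines the translated class, differed between the members. The lowest-numbered RefSeq mRNA of each gene on GRCm38.p6 was searched for ATG triplets in the leader, and other transcripts were not. Atf4 held 3, Atf5 held 6, Nfil3 held 3, Ddit3 held 2, and Atf3, Cebpg, Atf6b and Xbp1 held 1 each, whereas no ATG was found in the Cebpb and Atf6 leaders. The Atf6b ATG lay in frame with the coding sequence, so it opens no separate upstream frame. Of 9442 genes that were tested in the RPF data and had a transcript, 45.55% held an upstream ATG and 14.39% held a frame that ran past the coding start in another phase. The windows below are shown for the members whose footprints per RNA rose under bortezomib in S51 cells, with the upstream ATG in capitals, 9 bases before it and 6 bases after it.
Atf4, the second upstream ATG: gcggccaccATGgcgtat
Atf4, the third upstream ATG: gcctaagccATGgcgctc
Atf5, the fifth upstream ATG: gaaatttttATGaagagg
Atf5, the sixth upstream ATG: aggaataagATGaggtcc
Ddit3, the first upstream ATG: gattatatcATGttgaag
Ddit3, the second upstream ATG: atgttgaagATGagcggg
The second Atf4 window lies at chr15:80255573-80255590 on the plus strand, 196 bases before the coding start, and opens a frame of 3 codons. The third Atf4 ATG, at chr15:80255681-80255683, lies 97 bases before the start, and its frame of 59 codons runs 83 bases into the coding sequence. The fifth Atf5 window lies at chr7:44815493-44815510 on the minus strand and opens a frame of 63 codons that shares its stop with the frame of 58 codons from the sixth, whose ATG is at chr7:44815484-44815486. That shared stop lies 56 bases past the Atf5 coding start. The Ddit3 windows lie at chr10:127290820-127290837 and chr10:127290829-127290846 on the plus strand and open frames of 34 and 31 codons in the same phase, both closed before the coding start. The counted part of each coding sequence left out the first 15 codons, so that 38 bases of the Atf4 overlap and 11 bases of the Atf5 overlap stayed within the counted part and footprints there cannot be assigned to either frame.

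In the same assembly Atf4 spans chr15:80255184-80257545, Atf5 spans chr7:44812256-44816658, Atf3 spans chr1:191170296-191183333 and Ddit3 spans chr10:127290793-127296291. Cebpb spans chr2:167688915-167690432, Cebpg chr7:35046422-35056566 and Nfil3 chr13:52967209-52982878. The UPR factors lie at chr1:170704457-170868585 (Atf6), chr17:34647146-34655074 (Atf6b) and chr11:5520641-5525993 (Xbp1). Values below are gene sums over exons for total RNA and over the trimmed coding sequence for RPF.

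RPF libraries held 1038826 to 4902237 counts and total RNA libraries 18758668 to 22994713, so counting error was larger in RPF. All 12 keratinocyte markers were detected, whereas the summed level of 7 fibroblast markers was 0.483 to 4.25 CPM (counts scaled to the library total) in the RPF of vehicle-treated S51 cells and 3.90 to 9.99 CPM in the other RPF groups, with 3 of the 7 at 0 in every library. The summed level of 6 immune and endothelial markers was 7.28 to 16.9 CPM in RPF and 3.52 to 7.70 CPM in total RNA. The part of these low levels in the results was not tested. Eif2s1 RPF stood at 162, 81.2 and 171 CPM in the 3 vehicle-treated S51 libraries and at 213 to 259.8 CPM in the vehicle-treated S51A libraries, while its total RNA stayed between 279 and 314 CPM in all 16 libraries. The counts cannot show the S51A substitution itself. Bortezomib-treated S51 and vehicle-treated S51A columns were assigned by the series' note and the study's count table, which differ from the numbers in the sample titles, and every comparison rests on that assignment. S51 vehicle RPF replicate 2 stood apart from its group for several members. The study describes its replicates both as technical and as independent, so p-values measure the spread between these libraries. In these bulk samples a change in the cells' makeup and a change per cell cannot be told apart. All levels are scaled within libraries, so a rise or fall is relative to the other genes. The study reports that bortezomib lowered global protein synthesis, and such a change in total amount cannot be read from these counts.

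Bortezomib changed 5 of 9 tested members in the RPF of S51 cells. A call in RPF needed more than a 1.5-fold change together with an adjusted p under 0.05 in edgeR's quasi-likelihood test. Atf4, Atf5, Ddit3 and Xbp1 rose and Nfil3 fell, against 7.38% of all 9457 genes called higher and 11.2% called lower. The median log2 fold change of the 9 members was 0.37, and that of all genes was 0.00. In S51A cells Xbp1 rose and Nfil3 fell, where 4.19% of genes were called higher and 6.67% lower, and the members' median was 0.05. Under vehicle, S51A cells had less footprint on Atf5 and Cebpb and more on Xbp1 than S51 cells, against backgrounds of 9.19% called higher and 6.62% called lower. Under bortezomib, S51 cells exceeded S51A cells for Atf4, Atf5, Ddit3 and Cebpb, where 7.66% of genes were higher and 10% lower in S51. The difference between the S51 and S51A responses was itself called for Atf4, Atf5 and Ddit3, all 3 larger in S51, among only 0.878% of genes called higher and 0.983% called lower. Atf3 held 0 to 14 RPF counts per library and fell under the filter on low counts, so it has no RPF test.

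In total RNA, where a call needed a fold change above 2, 4 of 10 members changed in S51 cells. Atf3, Ddit3 and Xbp1 rose and Nfil3 fell, against 1.96% of 11708 genes called higher and 3.02% called lower. No member was called in S51A cells by edgeR or DESeq2, where 1.63% of genes were called higher and 2.55% lower. Of the 10 members, 8 had an unadjusted p below 0.05, a limit without a fold change. Over all genes, 6602 of 11708 passed the adjusted p of 0.05 in this comparison, so small RNA shifts were common. Under vehicle only Atf5 was called, lower in S51A, where 5.47% of genes were higher and 2.41% lower. Under bortezomib Atf5 and Ddit3 were higher in S51 than in S51A cells, against 2.74% of genes higher and 5.54% lower. The responses differed for Atf3 and Ddit3, both larger in S51, among 0.316% of genes called higher and 0.162% called lower. The members' median log2 values were 0.06 in S51, -0.13 in S51A, -0.06 under vehicle, 0.36 under bortezomib and 0.28 for the difference, and the all-gene medians lay between -0.01 and 0.00.

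Translational efficiency (TE), the RPF level relative to total RNA, was called higher for 3 of 9 members in bortezomib-treated S51 cells. These were Atf4, Atf5 and Ddit3, where 1.04% of 9424 genes were called higher and 4.24% lower. The same 3 members were higher in S51 than in S51A cells under bortezomib, against 0.552% of genes higher and 2.53% lower. The Ddit3 call of this comparison was lost without S51A bortezomib RPF replicate 1 (0.88, adjusted p = 0.0839). No member was called in S51A cells or between the vehicle-treated lines by edgeR or DESeq2. Of all genes, 0.0849% were called higher and 0.902% lower in S51A, and 0.0531% higher and 0.0318% lower under vehicle. At an unadjusted p below 0.05 the count of members was 0 in S51A cells and 1 under vehicle, the latter Atf6b. The share of all genes at that unadjusted limit was not computed. The response difference was called for Atf4 and Atf5, among 0.212% of genes called higher and 1.08% called lower. Comparisons that share a group of libraries, such as the S51 response and the S51 and S51A contrast under bortezomib, are not independent of each other.

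**Figure D1:**
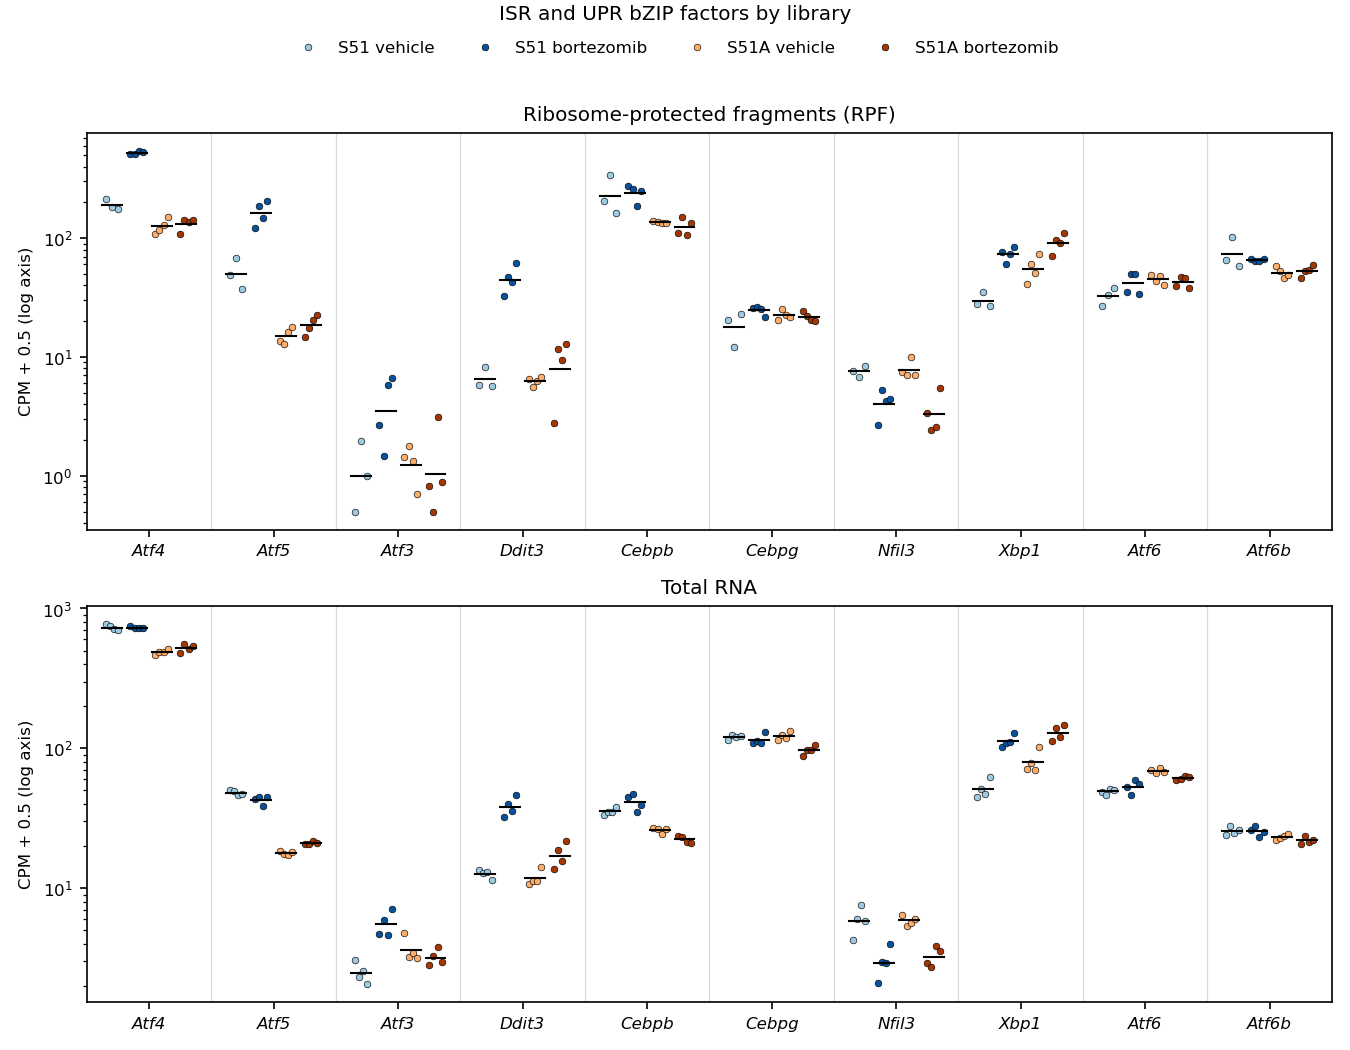
Levels of the 10 members in every library as CPM plus 0.5 on a log axis, with RPF in the upper row and total RNA in the lower row. Each point is a library, each bar is the geometric mean of its group, and the 4 groups are S51 and S51A cells with vehicle or bortezomib; Atf4 RPF stood at 506 to 538 CPM in bortezomib-treated S51 cells and at 107 to 212 CPM in all other libraries.

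Atf4, the central transcription factor of the ISR, gained footprints in S51 cells without a change of its RNA. Its RPF level was 212, 181 and 174 CPM in the vehicle-treated S51 libraries and 506, 506, 538 and 529 CPM with bortezomib. The S51A libraries held 107, 116, 129 and 151 CPM with vehicle and 108, 141, 137 and 141 CPM with bortezomib. The 4 bortezomib-treated S51 libraries thus lay above all others, and the S51A groups overlapped. The fold in S51 was 2.75 (log2 1.46, SE 0.116, adjusted p = 3.25e-09), whereas in S51A log2 was 0.06 (95% interval -0.16 to 0.27, adjusted p = 0.778). The responses differed by 1.40 (SE 0.158, adjusted p = 4.15e-05).

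Total RNA of Atf4 was 772, 749, 708 and 696 CPM in vehicle-treated and 743, 719, 729.6 and 725 CPM in bortezomib-treated S51 cells. It was 462, 486, 489.9 and 515 CPM in vehicle-treated and 479, 557, 509.6 and 541 CPM in bortezomib-treated S51A cells. Every S51 library thus held more Atf4 RNA than every S51A library, and within each line the treated and untreated libraries overlapped. Bortezomib moved Atf4 RNA by -0.00 on the log2 scale in S51 (95% interval -0.09 to 0.08). The lines differed by -0.58 under vehicle (S51A over S51, adjusted p = 1.77e-11) and by 0.48 under bortezomib (S51 over S51A, adjusted p = 4.40e-10), both under the 2-fold limit. Under vehicle the RPF difference was also -0.58 (adjusted p = 0.000659), just under the 1.5-fold limit, and passed it with DESeq2 and other scalings.

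The RPF to RNA ratio of Atf4 was 0.275, 0.242 and 0.247 in vehicle-treated S51 lysates and 0.681, 0.704, 0.737 and 0.73 with bortezomib. It lay between 0.225 and 0.293 in the 8 S51A lysates, which overlapped the vehicle-treated S51 lysates. TE of Atf4 rose by 1.46 on the log2 scale in S51 (SE 0.115, adjusted p = 2.75e-12), and the response exceeded that of S51A by 1.51 (SE 0.162, adjusted p = 2.88e-07). Under vehicle TE differed by 0.01 between the lines, with a sign that turned under other scalings.

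Atf5, a factor whose mRNA carries the overlapping frames shown above, combined a rise in translation with a difference in RNA between the lines. Its RPF level was 48.5, 68.2 and 37.1 CPM in vehicle-treated S51 cells and 121, 185, 148 and 206 CPM with bortezomib. S51A libraries held 13.1, 12.5, 15.8 and 17.2 CPM with vehicle and 14.2, 17.1, 19.8 and 22.1 CPM with bortezomib. All S51 libraries lay above all S51A libraries, and in S51 the treated and untreated libraries did not overlap. The highest of the untreated S51 values was that of replicate 2, in RPF and in the ratio of RPF to RNA. RPF rose 3.28-fold in S51 (log2 1.72, SE 0.190, adjusted p = 5.47e-07), and the S51A change was 0.30 (95% interval -0.17 to 0.76). The response difference was 1.42 (SE 0.301, adjusted p = 0.0124), which missed the threshold without S51A vehicle replicate 4 (1.30, adjusted p = 0.0517).

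Atf5 total RNA was 49.8, 49.0, 45.6 and 46.4 CPM in vehicle-treated S51 cells and 43.1, 44.6, 38.1 and 44.7 CPM with bortezomib. In S51A libraries the level was 17.9, 16.9, 16.7 and 17.7 CPM with vehicle and 20.04, 20.1, 21.2 and 20.5 CPM with bortezomib. The treated libraries were the lower ones in S51 and the higher ones in S51A, without overlap in either line. These shifts were small, at -0.16 in S51 (adjusted p = 0.00968) and 0.24 in S51A (adjusted p = 0.00173). The lines differed by -1.46 under vehicle (S51A over S51, SE 0.0569, adjusted p = 1.31e-16) and by 1.06 under bortezomib (S51 over S51A, SE 0.0569, adjusted p = 5.88e-14). In RPF the lines differed by -1.76 under vehicle (S51A over S51, SE 0.216, adjusted p = 2.85e-06) and by 3.18 under bortezomib (S51 over S51A, SE 0.199, adjusted p = 1.32e-10).

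The Atf5 ratio of RPF to RNA was 0.975, 1.39 and 0.814 in vehicle-treated S51 lysates and 2.81, 4.14, 3.88 and 4.603 with bortezomib, the highest values of Atf5 in any group. In S51A lysates it ran from 0.707 to 1.07, and the vehicle-treated and bortezomib-treated values overlapped. TE of Atf5 rose by 1.91 in S51 (SE 0.171, adjusted p = 9.70e-11) and the response difference was 1.86 (SE 0.300, adjusted p = 0.000375).

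**Figure D2:**
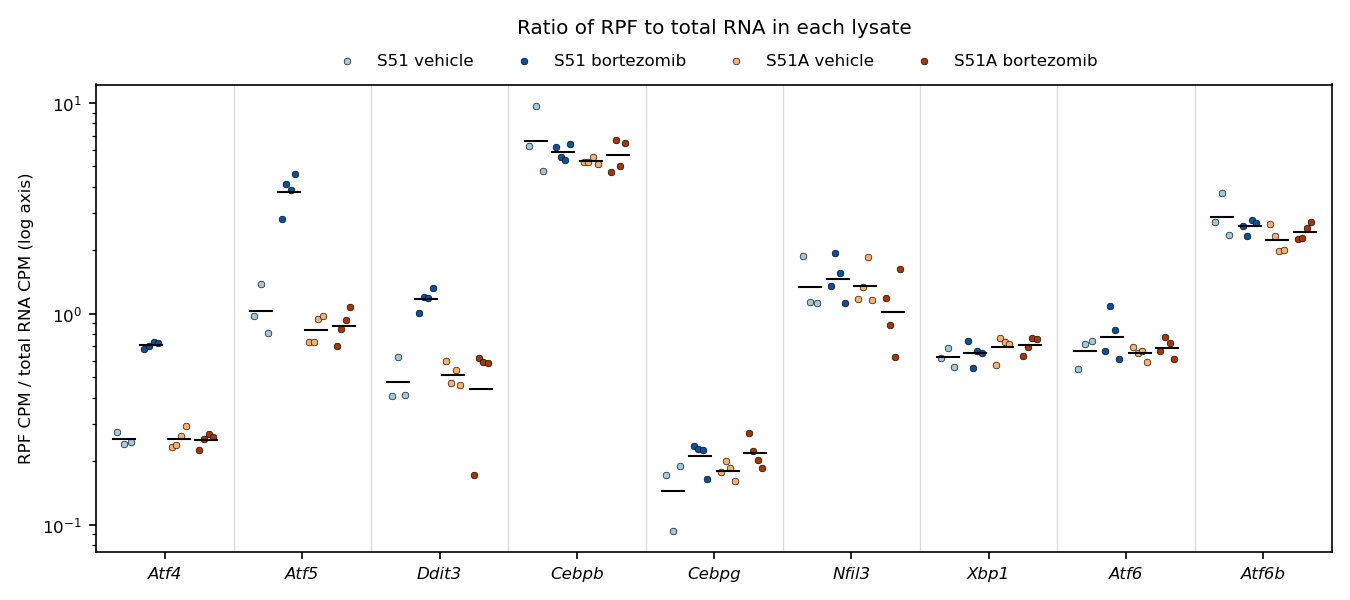
Ratio of RPF CPM to total RNA CPM in each lysate on a log axis for the 9 members with an RPF test, with 3 or 4 lysates per group and a bar at the geometric mean. Atf4, Atf5 and Ddit3 are the members whose bortezomib-treated S51 lysates lie above all vehicle-treated S51 lysates without overlap, and the S51A groups overlap for every member drawn. The share of all genes with such a separation was not computed.

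Ddit3, which encodes the pro-death factor CHOP, rose in RNA and more so in footprints. Its RPF level was 5.31, 7.74 and 5.23 CPM in vehicle-treated S51 cells and 32.02, 46.9, 42.0 and 61.1 CPM with bortezomib, from 15 to 21 and 44 to 111 counts per library. The S51A levels were 6.07, 5.07, 5.81 and 6.29 CPM with vehicle and 2.26, 11.2, 8.84 and 12.4 CPM with bortezomib. The treated S51 libraries lay above all others, while S51A bortezomib replicate 1 lay below its vehicle-treated group and the other 3 lay above it. RPF rose 7.69-fold in S51 (log2 2.94, SE 0.322, adjusted p = 4.77e-07), the largest fold change among the members tested. The S51A change was 0.52 (95% interval -0.17 to 1.21) and reached 0.91 (adjusted p = 0.0210) without S51A bortezomib replicate 1. The response difference was 2.42 (SE 0.487, adjusted p = 0.00735).

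Ddit3 total RNA was 13.04, 12.4, 12.6 and 10.8 CPM in vehicle-treated S51 cells and 31.9, 39.2, 35.4 and 46.0 CPM with bortezomib. The S51A levels were 10.2, 10.8, 10.7 and 13.7 CPM with vehicle and 13.1, 18.1, 15.01 and 21.1 CPM with bortezomib. The S51 groups were far apart, and the S51A groups overlapped in the range of a single vehicle-treated library. RNA rose by 1.64 in S51 (SE 0.120, adjusted p = 2.02e-11), and the S51A value was 0.57 (adjusted p = 0.000612), under the 2-fold limit. The response difference was 1.07 (SE 0.178, adjusted p = 0.000142) and came to 0.97, under the limit, without S51 bortezomib replicate 4, S51A vehicle replicate 4 or S51A bortezomib replicate 1. The ratio of RPF to RNA was 0.408, 0.624 and 0.414 in vehicle-treated and 1.00, 1.20, 1.19 and 1.33 in bortezomib-treated S51 lysates. It was 0.594, 0.471, 0.541 and 0.46 in vehicle-treated and 0.172, 0.618, 0.589 and 0.586 in bortezomib-treated S51A lysates. Only the treated S51 lysates thus reached 1.00. TE of Ddit3 rose by 1.32 in S51 (SE 0.371, adjusted p = 0.0174). That call was lost without S51 vehicle RPF replicate 1 (1.26, adjusted p = 0.0515) or replicate 3 (1.18, adjusted p = 0.0652), or without S51 bortezomib RPF replicate 4 (1.14, adjusted p = 0.0583). The highest of the vehicle-treated S51 ratios was that of replicate 2. The TE response difference, 1.38 (SE 0.562), had an adjusted p = 0.276 and was not called.

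Atf3, a stress-induced member of the ATF family, was a low-abundance RNA that rose in S51 cells. Its total RNA was 2.57, 1.81, 2.07 and 1.55 CPM in vehicle-treated and 4.23, 5.40, 4.13 and 6.60 CPM in bortezomib-treated S51 cells. In S51A libraries the level was 4.24, 2.72, 2.96 and 2.67 CPM with vehicle and 2.33, 2.78, 3.28 and 2.45 CPM with bortezomib. The treated S51 libraries lay above the untreated ones, and in S51A the groups overlapped. Atf3 RNA rose by 1.36 in S51 (SE 0.185, adjusted p = 8.07e-07), the S51A value was -0.22 (adjusted p = 0.335), and the response difference was 1.58 (SE 0.266, adjusted p = 0.000166). Under vehicle S51A exceeded S51 in Atf3 RNA by 0.67 (adjusted p = 0.00506). Under bortezomib S51 exceeded S51A by 0.91 (adjusted p = 8.49e-05). Neither pair of groups overlapped, and both values were under the 2-fold limit. The latter passed it without S51 bortezomib replicate 3 (1.00) or S51A bortezomib replicate 3 (1.01). RPF counts were 0, 3 and 2 in vehicle-treated S51 cells and 3, 1, 14 and 11 with bortezomib. They were 2, 6, 2 and 1 in vehicle-treated and 1, 0, 5 and 1 in bortezomib-treated S51A cells. The S51 ranges overlapped, as did those of S51A. With no filter beyond 1 count, the RPF change of Atf3 in S51 was 2.76 (adjusted p = 0.00305). Its response difference was 2.83 (adjusted p = 0.218) and was not called. In the same setting the lines differed under bortezomib by 2.42 (S51 over S51A, adjusted p = 0.00453).

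The letters of the CARE element bound by C/EBP and ATF dimers (TGATGNAA, either strand) were present in the RefSeq promoter window of Atf3, from 250 bases before to 50 bases after the start. The match is shown in capitals on the strand of the gene, with 8 bases on either side.
Atf3, promoter, chr1:191183428-191183451, minus strand: tctcgcacTTGCATCAccaagtcc
Promoters of 9 of the 10 members were found in the RefSeq table, and Atf3 was the member with this match. The element was present in 3.97% of 32851 promoters, so the match is a description and not a measured site. The letters TGACGTCA (1.79% of promoters) and TGACGTGG (0.68%) and the ER stress response element (0.12%) were not in the windows of these 9 members.

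Cebpb, which encodes C/EBPβ, had the highest footprint density per coding kilobase of the members in vehicle-treated S51 cells and differed between the lines in RPF, with no call on treatment. Its RPF level was 205, 336 and 164 CPM in vehicle-treated and 274, 259, 186 and 248 CPM in bortezomib-treated S51 cells. The S51A libraries held 139, 137, 133 and 133 CPM with vehicle and 109, 151, 105 and 132 CPM with bortezomib. All S51 libraries lay above all S51A libraries, and treatment left the groups overlapping in both lines. The lines differed by -0.78 under vehicle (S51A over S51, SE 0.176, adjusted p = 0.00205) and by 0.95 under bortezomib (S51 over S51A, SE 0.171, adjusted p = 0.000211). Without S51 vehicle replicate 2, its highest library, the vehicle difference was -0.44 and was not called. Total RNA was 32.9 to 37.5 CPM in vehicle-treated and 34.6 to 46.5 CPM in bortezomib-treated S51 cells. It was 24.03 to 26.3 CPM and 20.4 to 23.2 CPM in the corresponding S51A groups, again below every S51 library. The RNA difference was -0.45 under vehicle (adjusted p = 1.17e-05) and 0.91 under bortezomib (adjusted p = 1.47e-10), both under the 2-fold limit. Treated S51A libraries lay below untreated ones in RNA without overlap (-0.23, adjusted p = 0.0155), the S51 groups overlapped (0.23, adjusted p = 0.0067), and the responses differed by 0.46 (adjusted p = 0.0028), all under that limit.

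Cebpg, whose product C/EBPγ is a dimer partner of ATF4, was not called in any comparison. Its RPF level ran from 11.6 to 25.8 CPM over all 15 libraries, the lowest being S51 vehicle replicate 2. Its total RNA was 115 to 125 CPM in vehicle-treated and 108 to 129 CPM in bortezomib-treated S51 cells. S51A libraries held 113 to 132 CPM with vehicle and 87.8 to 106 CPM with bortezomib. Only the treated S51A group was set apart, with an RNA change of -0.33 (adjusted p = 2.37e-05), under the 2-fold limit.

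Nfil3, a transcriptional repressor, lost footprints in both lines. Its RPF level was 7.08, 6.28 and 7.97 CPM in vehicle-treated and 2.18, 4.78, 3.78 and 3.92 CPM in bortezomib-treated S51 cells. In S51A cells it was 7.01, 6.55, 9.54 and 6.49 CPM with vehicle and 2.90, 1.95, 2.08 and 5.03 CPM with bortezomib. The treated libraries lay below the untreated ones in both lines without overlap. The RPF change of Nfil3 was -0.98 in S51 (SE 0.331, adjusted p = 0.0294) and -1.21 in S51A (SE 0.291, adjusted p = 0.00458). The S51 call was lost with DESeq2 (adjusted p = 0.0589) and without any of 5 single libraries. These were S51 vehicle replicate 1 (0.0516) or 3 (0.0817) and S51 bortezomib replicate 1 (0.0787), 3 (0.0692) or 4 (0.0518), with the adjusted p in brackets. In total RNA Nfil3 was 3.77, 5.52, 7.07 and 5.36 CPM with vehicle and 1.61, 2.46, 2.43 and 3.48 CPM with bortezomib in S51. The S51A values were 5.98, 4.89, 5.12 and 5.56 CPM with vehicle and 2.43, 2.21, 3.33 and 3.08 CPM with bortezomib. Again the treated libraries were the lower ones throughout. RNA fell by 1.13 in S51 (SE 0.187, adjusted p = 1.29e-05). The S51 value was -0.98 without S51 vehicle replicate 3 and -0.97 without S51 bortezomib replicate 1, under the limit. The S51A value was -0.97 (adjusted p = 8.48e-05), just under the 2-fold limit. The responses of the lines differed by 0.23 in RPF and by -0.16 in RNA, neither called.

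Xbp1, the factor activated by IRE1, rose in S51 cells in RNA and RPF and had more footprint in S51A than in S51 cells without stress. Its RPF level was 27.3, 34.8 and 26.1 CPM in vehicle-treated and 76.4, 60.3, 73.4 and 82.9 CPM in bortezomib-treated S51 cells. In S51A cells it was 40.7, 60.0, 50.6 and 73.2 CPM with vehicle and 70.6, 96.0, 91.0 and 111 CPM with bortezomib. The S51 groups did not overlap, and the S51A groups overlapped through S51A vehicle replicate 4. The RPF change of Xbp1 was 1.35 in S51 (SE 0.193, adjusted p = 1.59e-05) and 0.68 in S51A (SE 0.155, adjusted p = 0.00308). The S51A call was lost without S51A vehicle replicate 1 or S51A bortezomib replicate 4, each leaving 0.57. Under vehicle S51A exceeded S51 by 0.99 (SE 0.187, adjusted p = 0.000449), and under bortezomib the lines differed by -0.31 (S51 over S51A), which was not called. The response difference was 0.67 (SE 0.247, adjusted p = 0.168) and was called only without S51 vehicle replicate 2 (0.82, adjusted p = 0.0216).

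Xbp1 total RNA was 44.0, 50.4, 46.7 and 61.4 CPM in vehicle-treated and 102, 109, 110.0 and 127 CPM in bortezomib-treated S51 cells. In S51A cells it was 70.8, 78.4, 69.0 and 101.3 CPM with vehicle and 112, 139, 119 and 145 CPM with bortezomib. Treated libraries lay above untreated ones in both lines without overlap. Among untreated libraries, every S51A library held more Xbp1 RNA than every S51 library. That RNA difference was 0.66 (S51A over S51, adjusted p = 1.18e-05), under the 2-fold limit. RNA rose by 1.14 in S51 (SE 0.107, adjusted p = 1.74e-09), and with library sizes alone the value was 0.99, just under the 2-fold limit. The S51A change was 0.69 (adjusted p = 3.78e-06), under the 2-fold limit, and the difference of the responses was 0.46 (adjusted p = 0.0291), also under it. The ratio of RPF to RNA stayed between 0.552 and 0.765 in all 15 lysates, with no TE call.

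The activity of XBP1 depends on the removal of 26 bases, which gene counts do not resolve. The capitals show the gap between the exons of the RefSeq form without the intron. A G stands both first in this gap and right after it. Placing the stretch a base to the right would thus give the same spliced mRNA, and the exact cut site cannot be read from it.
Xbp1, intron removed by IRE1, chr11:5524278-5524303, plus strand: ccGCAGCACTCAGACTATGTGCACCTCTgc
Because 26 is not a multiple of the codon length, its removal changes the reading frame. The RefSeq coding sequence has 267 codons with the intron and 371 codons without it. The RPF and RNA values of Xbp1 sum both forms, and their shares were not analysed here.

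Atf6 and Atf6b, the ER membrane factors, were not called in response to bortezomib. Atf6 RPF was 26.6, 32.9 and 37.8 CPM in vehicle-treated and 34.9, 49.7, 49.2 and 33.6 CPM in bortezomib-treated S51 cells, and 37.5 to 48.1 CPM over the 8 S51A libraries. Its total RNA was 45.8 to 50.9 CPM in vehicle-treated S51 cells and 66.3 to 72.0 CPM in vehicle-treated S51A cells, so that every untreated S51A library lay above every untreated S51 library. That RNA difference was 0.50 (adjusted p = 4.07e-08) and the RPF difference was 0.44 (adjusted p = 0.0378), both under their fold limits. Atf6b RPF was 64.5, 102 and 57.5 CPM in vehicle-treated S51 cells and 45.6 to 57.9 CPM in vehicle-treated S51A cells, a difference of -0.53 (adjusted p = 0.0122) under the 1.5-fold limit. The groups overlapped, and the highest value again was S51 vehicle replicate 2. The Atf6b difference passed the limit without S51 vehicle replicate 1 (-0.61) or 3 (-0.73), which left that library with more weight. Atf6b total RNA ran from 20.2 to 27.5 CPM over all 16 libraries.

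**Figure D3:**
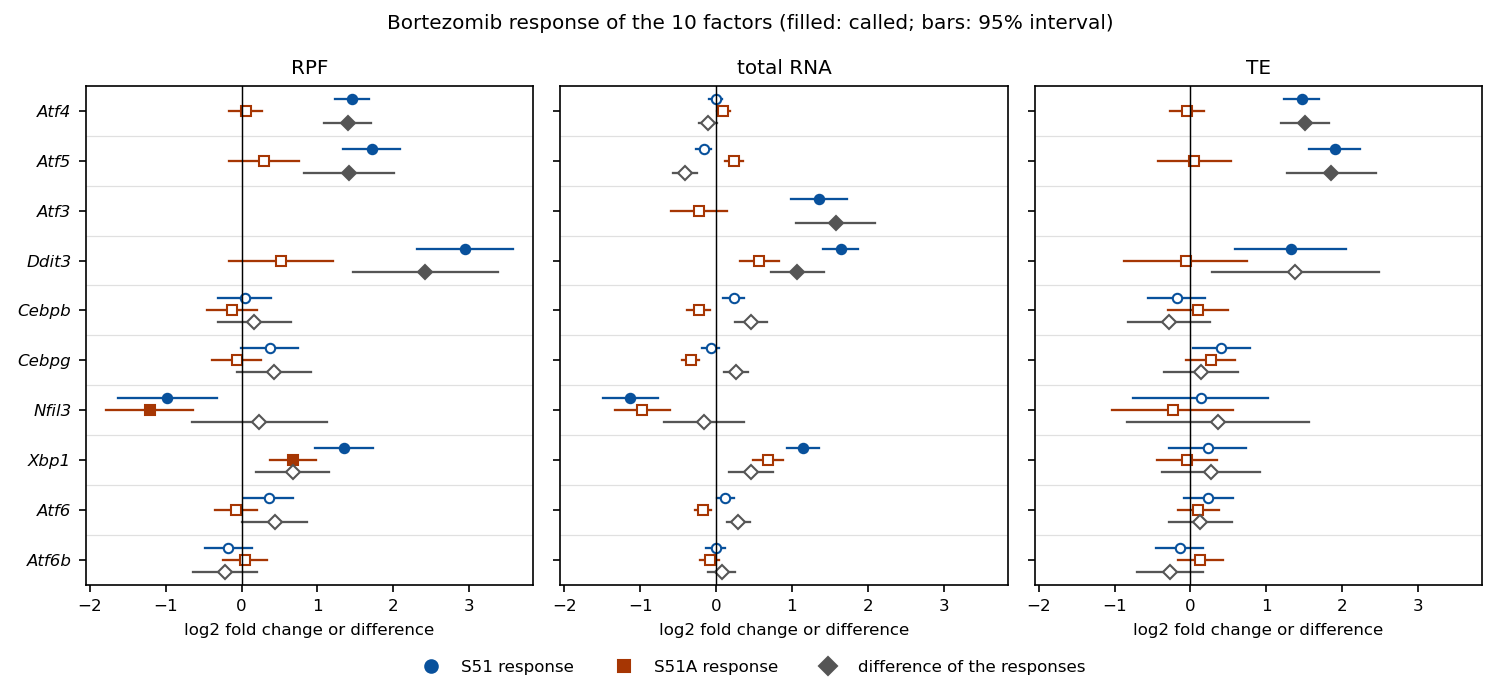
Log2 fold changes of the members in RPF, total RNA and TE (3 panels) for the bortezomib response of S51 cells, that of S51A cells and the difference between them, with bars for the 95% interval. Filled symbols passed both the adjusted p of 0.05 and the fold limit (1.5 for RPF and TE, 2 for total RNA); in RPF the filled differences are Atf4 at 1.40, Atf5 at 1.42 and Ddit3 at 2.42.

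On the scale of RPF CPM per coding kilobase, which allows levels of different genes to be set side by side, Cebpb (283) and Atf4 (191) led in vehicle-treated S51 cells. Atf5 (64.7), Cebpg (45.9), Xbp1 (39.5) and Atf6b (36.2) followed, and Atf6 (17.0), Ddit3 (13.6), Nfil3 (5.4) and Atf3 (1.3) were lowest. With bortezomib Atf4 (525) stood above Cebpb (291) and Atf5 (208), and Ddit3 (101.8) came to lie beside Xbp1 (98.4). In vehicle-treated S51A cells the order was led by Cebpb (163), Atf4 (127) and Xbp1 (75.4), with Atf5 at 18.5. In bortezomib-treated S51A cells Cebpb (149.6), Atf4 (133) and Xbp1 (123.7) led, and Ddit3 was at 19.4. These group means were not tested between genes. The Xbp1 values used the length of the 267-codon form, and the length of the 371-codon form would give lower values. The place of Xbp1 can thus depend on that choice in some of these orders.

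Genes whose level followed that of a member most closely across libraries are given as a description, since all points share the 4 groups. Over the 15 RPF libraries the genes most like Atf4 in log2 CPM were Atf5, H4c14 and Polr1a (Pearson's r = 0.96 each). Those most like Atf5 were Psph (0.99), an enzyme of serine synthesis, Polr1a (0.98) and Trib3 (0.98), a pseudokinase. Those most like Ddit3 were Gadd45a (0.97), a stress gene of growth arrest, Nsf (0.92) and Clk3 (0.91). Over the 16 total RNA libraries Atf3 was most like Nfe2l1 (0.86), a bZIP factor of proteasome gene expression, Smad4 (0.85) and Nhsl1 (0.84). Ddit3 RNA was most like Pgk1 (0.98), Ipo7 (0.97) and Nrd1 (0.97). For Nfil3 the closest genes with a symbol were Cbr4 (0.94) and Ankrd40 (0.93).

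The genes around the members were read from 4 lists. Of all genes in RPF, 7.38% were called higher in S51, and 4.19% higher and 6.67% lower in S51A. Under vehicle 6.62% were lower in S51A, and under bortezomib 7.66% were higher in S51. The RPF response difference was called higher for 0.878%. In total RNA 1.96% were called higher in S51 and 1.63% in S51A. Between the lines, 2.41% were lower in S51A RNA under vehicle and 2.74% higher in S51 RNA under bortezomib. Of 33 tested targets of ATF4 and CHOP, 9 rose in the RPF of S51 cells with a median log2 of 0.35, led by Gdf15 (4.37), a secreted stress cytokine, Ppp1r15a (2.77), the phosphatase subunit that reverses eIF2α phosphorylation, Ddit4 (2.52), an inhibitor of mTORC1, and Tnfrsf10b (2.28), a death receptor. In S51A cells 4 rose, with a median of 0.06. These were Gdf15 (3.05), Ddit4 (2.53), Tnfrsf10b (1.91) and Sesn2 (1.58), and Chac1, a glutathione-degrading enzyme, fell by 0.90; Sesn2 and Chac1 were named after their values were seen. Between the lines 20 of the 33 were lower in S51A under vehicle (median -0.73) and 28 were higher in S51 under bortezomib (median 1.06), and without S51 vehicle replicate 2 the first count was 19. The response difference was called for 2, Ppp1r15a (2.12) and Chac1 (1.59), also named after their values were seen, and for 4 without S51 vehicle replicate 2. The count was 1, with Ppp1r15a no longer called, without S51 bortezomib RPF replicate 3 or S51A vehicle RPF replicate 4, and DESeq2 did not call Ppp1r15a either. In total RNA 9 of 33 rose in S51, led by Gdf15 (3.40), Ddit4 (2.56), Sesn2 (2.04) and Tnfrsf10b (1.75), and 4 rose in S51A. In RNA 8 were lower in S51A under vehicle and 16 higher in S51 under bortezomib.

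Of 26 tested targets of ATF6 and XBP1, 14 rose in the RPF of S51 cells (median 0.61) and 10 in that of S51A cells (median 0.50). The shares of all genes called higher were 7.38% and 4.19%. Hspa5, the ER chaperone BiP, stood at 1.70 in S51 and 1.19 in S51A, Sec24d, a COPII coat subunit, at 1.59 and 1.21, and Dnajb9, an ER co-chaperone, at 1.24 and 1.20, all called. In S51 the ER chaperone Hsp90b1 followed with 1.08. No response difference was called on this list in RPF by edgeR, and the count was 1 without S51 vehicle replicate 2. In total RNA 3 of 27 rose in each line, against 1.96% of all genes in S51 and 1.63% in S51A. These were Sec24d (1.43), Derl3 (1.22) and Hspa5 (1.12) in S51 and Hspa5 (1.17), Sec24d (1.13) and Dnajb9 (1.06) in S51A. Over the settings tried the count ran from 2 to 3 in S51 and from 1 in S51A, without S51A bortezomib replicate 4, to 5, without S51A vehicle replicate 4 or S51A bortezomib replicate 1 or 3.

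Among 10 stress sensors and phosphatase subunits, Ppp1r15a (2.77) and Eif2ak3 (0.78), the ER stress kinase PERK, rose in the RPF of S51 cells. Eif2ak3 (0.87) also rose in that of S51A cells. The shares of all genes called higher were 7.38% in S51 and 4.19% in S51A. The S51 count of this list was 1 without S51 vehicle replicate 1 or S51 bortezomib replicate 4. Ppp1r15a was also the member of this list with a TE call in S51, at 1.59. When at least 10 counts were required in every library, only 9 of the 10 genes were tested and 0 had a TE call. Of 26 other bZIP factors tested, 2 rose and 5 fell in the RPF of S51 cells, with a median of 0.03, where 7.38% and 11.2% of all genes were called. Jun (2.32), an AP-1 subunit, and Nfe2l2 (0.83), the oxidative stress factor NRF2, rose, and Maf (-1.70) and Jdp2 (-1.28) fell most. Without S51 vehicle replicate 2, 28 of these factors were tested, of which 4 rose and 2 fell. In S51A 3 rose and 8 fell, where 4.19% and 6.67% of all genes were called. The number that fell ran from 4 to 8 over the settings tried. In total RNA Jun (2.29) and Cebpa (2.07) rose and Maf (-1.64) and Dbp (-1.28) fell among 33 tested in S51. The shares of all genes called there were 1.96% higher and 3.02% lower.

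**Figure D4:**
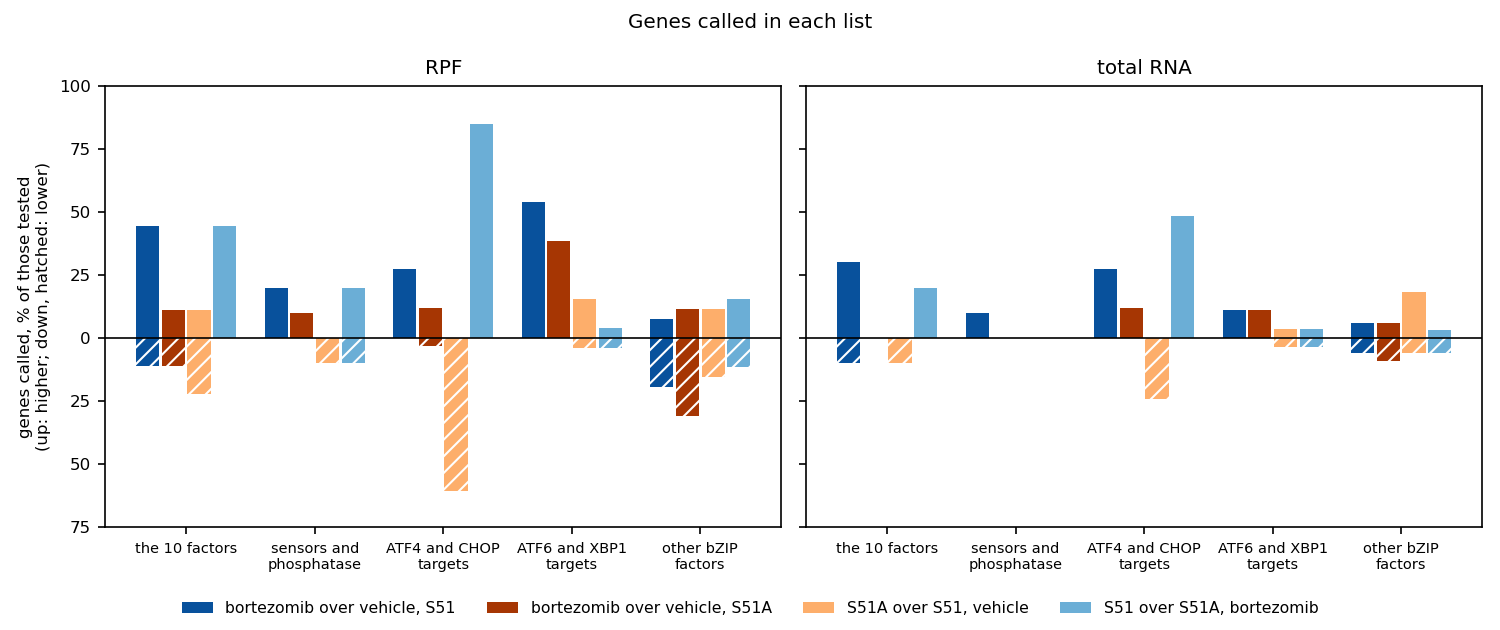
Share of tested genes called higher (upward bars) or lower (hatched, downward bars), in percent, for the members and 4 lists in 4 comparisons, with RPF and total RNA in separate panels. In RPF, 9 of 33 ATF4 and CHOP targets rose in S51 cells and 4 in S51A cells, and 14 and 10 of 26 ATF6 and XBP1 targets. The shares of all genes called higher were 7.38% in S51 and 4.19% in S51A.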

How the data were processed

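The authors deposited gene counts made from their reads, 1 column per library, for RPF and for total RNA. Per the labels and the study's methods, RPF of 20 to 23 or 26 to 32 bases were counted over coding sequences without the first 15 and last 5 codons. The submitters' processing notes name Bowtie2, featureCounts, DESeq2 and mm10. Libraries were prepared with cycloheximide in the lysis buffer. The footprint lengths and the trimmed ends set which ribosomes are counted. For bortezomib-treated S51 and vehicle-treated S51A cells, the numbers in the sample titles point to each other's columns. The series' note records a swap of these titles with no move of the data, and the study's own count table names the columns in the order used here, so those sources set the assignment; with the titles' numbers, these groups would be swapped. No per-sample column was left out.

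RPF (15 libraries) and total RNA (16 libraries) were each fitted across all genes with edgeR 4.0.16 in R 4.3.3 (quasi-likelihood test, TMM, filterByExpr with a minimum count of 10, a coefficient per group). TE was the interaction of library kind and group in a single fit of all 31 libraries. RPF and total RNA libraries of the same lysate were treated as independent in it. Their deviations from the group means correlated with a median r of 0.116, against -0.032 for different lysates of a group. The TE p-values do not take this link into account, and a fit with the lysate as a block was run as an alternative. P-values were adjusted by Benjamini-Hochberg over all genes tested. Calls needed an adjusted p below 0.05 and a fold above 1.5 (RPF and TE) or 2 (total RNA). CPM use TMM library sizes, and 95% intervals are 1.96 SE. Identifiers matched RefSeq for 20687 of 20704 and 24569 of 24593 genes. Every pair of replicate libraries differed by more than sampling noise. The members and lists were chosen with earlier results of these data known, as was the naming rule: all members, up to 4 called genes per list and library kind in the S51 response, and the 3 genes most like a member. Scripts were tested on simulated data. DESeq2 1.42.0, other scalings and filters, a replicate block and the omission of each library were run as alternatives. List counts under these settings were added after the data were seen.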

Additional observations from a re-analysis of the deposited data

Results flagged for a closer look

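In 5 of 94 groups of 4 libraries, a member's value lay apart from the other libraries by Dixon's criterion, which chance alone meets in about 1 in 20 groups. Atf4 RPF in bortezomib-treated S51A replicate 1 was 108 CPM, below the 137 to 141 CPM of the rest of its group. Nfil3 RPF in vehicle-treated S51A replicate 3 was 9.54 CPM. Ddit3 total RNA in vehicle-treated S51A replicate 4 was 13.7 CPM. Ddit3 TE in bortezomib-treated S51A replicate 1 was 0.172, from 7 footprint counts. Cebpg TE in bortezomib-treated S51 replicate 4 was 0.165.

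The bortezomib response differed between S51 and S51A cells by the interaction test for Atf4 (1.40), Atf5 (1.42) and Ddit3 (2.42) in RPF, for Atf3 (1.58) and Ddit3 (1.07) in total RNA, and for Atf4 (1.51) and Atf5 (1.86) in TE, all as log2 and all larger in S51.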

How the results depend on the processing

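The RPF calls of Atf4, Atf5 and Ddit3 in S51 cells were kept in every alternative that tested them. With at least 10 counts required in every library, Ddit3 and Nfil3 were not tested, and members called in RPF went from 5 to 3 in S51 and from 2 to 1 in S51A. With library sizes alone, 1 member in place of 0 was called in S51A total RNA (Nfil3, -1.09). A fold limit of 1.5 in total RNA gave 2 members in place of 0 in S51A, 3 in place of 1 under vehicle and 4 in place of 2 under bortezomib. With a replicate block, Atf4 passed the RPF limit under vehicle (-0.64, 4 members in place of 3), and the block changed no other count of members. Same-numbered libraries of different groups were checked for shared deviations. In total RNA their correlations ran from 0.029 to 0.395 (median 0.185, against -0.061 for different numbers), 21 of 24 were over 0.1, and 15 of 16 libraries correlated best with their own number. In RPF they ran from -0.166 to 0.269, and 9 of 15 did. As not every pair was over 0.1 and the labels tie the numbers to no shared source, the total RNA pattern is a hint from the data and the samples were not taken as paired. When each library was left out in turn, many counts of members called moved. In RPF they ranged from 4 to 6 in S51, 1 to 3 in S51A and 3 to 5 under vehicle. The RPF count ranged from 4 to 5 under bortezomib and from 2 to 4 for the response difference. In total RNA the counts ranged from 3 to 4 in S51 and 0 to 1 in S51A. The RNA count ranged from 2 to 3 under bortezomib and from 1 to 2 for the difference. In TE the counts ranged from 2 to 3 both in S51 and under bortezomib. The cause of these shifts was not tested.

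Values near 0 changed sign, none of them called. Atf4 RNA in S51 was 0.0049 with RLE factors and 0.0049 with DESeq2, and ran from -0.0276 to 0.0225 without single libraries. With library sizes alone, Atf4 RNA in S51A was -0.0204, Nfil3 RNA under vehicle 9e-04, Atf4 TE in S51A 0.0369, Ddit3 TE in S51A 0.0258 and Atf4 TE under vehicle -0.0258. Atf4 TE under vehicle was -0.0047 with RLE factors, -0.0158 with DESeq2 and -0.0031 with no filter. With the replicate block it was -0.0148, Ddit3 TE under vehicle was -0.0546 and Nfil3 RNA under vehicle 6e-04. Without single libraries the vehicle differences ran from -0.1019 to 0.0989 (Atf4 TE), -0.0732 to 0.233 (Ddit3 TE), -0.179 to 0.1309 (Ddit3 RPF), -0.1232 to 0.0621 (Nfil3 RPF) and -0.1485 to 0.133 (Nfil3 RNA). In S51A they ran from -0.0073 to 0.1601 (Atf4 RPF), -0.1084 to 0.0601 (Atf4 TE), -0.0726 to 0.1819 (Atf5 TE) and -0.3565 to 0.354 (Ddit3 TE). Cebpb RPF ran from -0.1953 to 0.3764 in S51 and from -0.063 to 0.5026 for the response difference, and Nfil3 RNA under bortezomib from -0.3384 to 0.016.

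Over all genes, library sizes alone moved the total RNA median to -0.16 in S51 and -0.13 in S51A. Calls higher and lower were then 161 and 578 in place of 230 and 354 in S51 RNA, 155 and 431 in place of 191 and 298 in S51A RNA, 389 and 244 in place of 98 and 400 in S51 TE, 128 and 143 in place of 52 and 238 in TE under bortezomib, and 37 and 61 in place of 20 and 102 in the TE difference. A fold limit of 1.5 gave 667 and 1123 in S51 RNA, 532 and 1003 in S51A RNA, 1316 and 737 under vehicle (640 and 282 with a limit of 2), 964 and 1373 under bortezomib (321 and 649), and 157 and 88 for the difference (37 and 19). At least 10 counts in every library gave 543 and 448 in RPF under vehicle (869 and 626), and 138 and 187, 391 and 150, 181 and 380, and 19 and 6 in RNA of S51A, under vehicle, under bortezomib and for the difference. DESeq2 gave 25 and 10 for the RNA difference, 51 and 159 for the TE difference, and 15 and 18 for TE under vehicle (5 and 3), which the other settings put at 0 to 6 and 0 to 4. With the lysate fitted as a block, calls for the TE difference were 8 and 56 in place of 20 and 102. RPF depth limits Ddit3, Nfil3 and Atf3 most.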
